A study of Mus musculus with 6 samples.

Results

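The probes of mouse chromosome 9, the chromosome that carries Tgfbr2, were examined in array-CGH data of forestomach tissue from mice in which Tgfbr2 was deleted in stromal fibroblasts. A probe was taken when it was not a control and its position in the files, on the mouse genome build mm8, lay on chromosome 9. This gave 2455 of 42404 probes. In array-CGH, 2 samples of genomic DNA labeled with separate dyes are hybridized to the same probes, and the dye ratio follows the relative amount of DNA. The test DNA came from epithelia and stroma that were laser captured, after identification by morphology, from the forestomach of 3 Tgfbr2 fspKO mice (C57Bl/6 background, floxed Tgfbr2 with FSP1-Cre, aged 5 weeks, with squamous cell carcinoma, and no treatment recorded), and was labeled with Cy3 on 6 arrays, 1 for each tissue and mouse. The reference DNA, labeled with Cy5 on every array, was that of normal forestomach epithelia from Tgfbr2 flox/flox mice. Both carried the floxed allele, and only the test mice carried the Cre. FSP1-Cre acts in a subset of fibroblasts, so the deleted allele is to be sought in part of the cells of the stroma. No Tgfbr2 flox/flox tissue was measured as a test sample, no control stroma was compared, and the dyes were not swapped. A ratio against 0 therefore leaves out the spread of the control, which counts as 1 sample. Genomic DNA carries no expression, so the captured compartments were not checked against cell type markers. The question addressed was whether copy number along the chromosome of the targeted gene differed from the reference, or between the tissues.

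Tgfbr2 encodes the type II receptor of TGF-β, which binds the ligand and then recruits and phosphorylates the type I receptor. The activated complex phosphorylates Smad2 and Smad3, whereas Smad6 restrains this family of signals. TGF-β restrains the growth of many epithelia, and its receptors and Smads are recurrently lost in squamous and gastrointestinal tumors. In the order of protein-coding genes of chromosome 9 in the RefSeq table of the assembly GRCm38.p6, Tgfbr2 is number 1104 of 1201, between Gadl1 and Rbms3. Smad3 and Smad6 lie side by side at numbers 628 and 629. Of the genes listed for DNA damage and squamous carcinoma, the order begins with the metalloproteinase genes Mmp13, Mmp3 and Mmp10, followed by the apoptosis inhibitors Birc2 and Birc3 and the Hippo effector Yap1. The damage kinase genes Chek1, Atm and Atr are numbers 248, 508 and 838. Then follow Pik3cb, a lipid kinase gene, the Ras-association gene Rassf1, the receptor gene Mst1r, the GTPase gene Rhoa and the histone methyltransferase gene Setd2, which at number 1054 precedes Tgfbr2. Ctnnb1, which encodes β-catenin, is number 1143 and was the only 1 of the 18 listed genes after Tgfbr2. This order gives no position on mm8 and no probe is paired with a gene in the files, so no value is given for any gene, Tgfbr2 included. The chromosome is described by position.

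The probes of chromosome 9 ran from 3156654 to 123957580 and were 45 to 60 bases long, with a median distance of 21121 bp between the starts of neighbors. Over all chromosomes this distance was 21827 bp. A change smaller than this distance may lie between probes and go unmeasured. The chromosome was divided by length into 3 equal parts, a proximal segment with 717 probes, up to 43079776, a middle segment with 922 probes, up to 83680422, and a distal segment with 816 probes. Values are log2 ratios of test over reference after subtraction of each array's median, with those below 0 marking less DNA in Tgfbr2 fspKO tissue. They are listed in the order of mice 1, 2 and 3 throughout. Loss of 1 copy of 2 in every captured cell would give -1, and gain of 1 copy would give 0.58. Between neighboring probes of chromosome 9, the median absolute difference was 0.47, 0.81 and 0.38 in the epithelia, and 0.48, 0.40 and 0.40 in the stroma. Over all chromosomes it was 0.46, 0.81 and 0.38, and 0.48, 0.39 and 0.41. The epithelia of mouse 2 were thus the noisiest array on chromosome 9 as elsewhere, and means of the chromosome and its segments are also given without them where that turned a direction, as are the bin means printed. Of the chromosome 9 spots, 94.0%, 87.6% and 98.8% had test signal well above background in the epithelia and 97.8%, 91.6% and 95.7% in the stroma. For the reference signal the shares were 83.4%, 80.6% and 97.9% on the epithelial arrays and 80.1%, 83.9% and 96.3% on the stromal arrays. They were lower for mice 1 and 2 than for mouse 3.

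Over the whole chromosome, no gain or loss was called in either tissue. The mean log2 ratio of the 2455 probes was 0.010, -0.035 and 0.0027 in the epithelia, and 0.049, -0.0038 and 0.016 in the stroma. The epithelia of mouse 2 were the lowest array and the stroma of mouse 1 the highest, and the tissues overlapped. In the epithelia the mean was -0.0074 ± 0.024 (SD, n = 3), with a 95% interval from -0.064 to 0.049 and an adjusted p of 0.869 in limma. In the stroma it was 0.020 ± 0.027 (SD, n = 3), with an interval from -0.036 to 0.077 (adjusted p = 0.962, limma), and it fell to 0.0061 without mouse 1 and to 0.0069 with normexp background correction. These intervals do not reach a change of 1 copy in all cells. Here and below, the means of both tissues were tested with 1 spread over all 6 arrays, unless a tissue was fitted alone. Stromal intervals and p-values thus hold the epithelial spread, and the reverse. By the same limma test and an adjusted p under 0.05, 45% of the 20 chromosomes were called in the epithelia, 0% in the stroma and 10% for the difference between tissues, and chromosome 9 was called in none, nor was it at an unadjusted p under 0.05. Ordered by the distance of its mean from 0, chromosome 9 was the 3rd, 6th and 1st nearest of the 20 in the epithelia, and the 13th, 2nd and 6th in the stroma. Within each mouse the epithelia were lower than the stroma, by -0.039, -0.031 and -0.013. The mean difference was -0.028 ± 0.013 (SD, n = 3), with a limma interval from -0.11 to 0.053 (adjusted p = 0.555). The exact sign-flip permutation test over the 3 mice gave a two-sided p of 0.25, the smallest that 3 mice allow. Without the epithelia of mouse 2, the epithelial mean was 0.0064.

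The distal segment, which holds the targeted gene, lay close to the reference in both tissues. It was averaged over 816 probes, too many to show a deletion within 1 gene in part of the cells. Deletion of Tgfbr2 itself was thus not tested. The mean log2 ratio of the segment was -0.011, 0.085 and -0.0099 in the epithelia, and -0.026, -0.044 and 0.020 in the stroma. Only mouse 2 epithelia and mouse 3 stroma were above 0, and the tissues overlapped. The epithelial mean was 0.021 ± 0.055 (SD, n = 3; 95% interval -0.054 to 0.097, limma adjusted p = 0.681). The stromal mean, the level of the tissue in which the Cre acts, was -0.017 ± 0.033 (SD, n = 3; interval -0.092 to 0.058, adjusted p = 0.982 in limma). It was -0.048 over probes well above background, -0.035 without mouse 3 and -0.0030 without mouse 2. Among segments of all chromosomes, 18.3% of 60 were called in the epithelia, 0% in the stroma and 0% for the difference, and 0 segments of chromosome 9 were called in any of these, or passed an unadjusted p of 0.05. Epithelia minus stroma was 0.015, 0.13 and -0.030 in the 3 mice, with a mean of 0.038 ± 0.082 (SD, n = 3; interval -0.090 to 0.17). Its exact sign-flip permutation p was 0.75 and its adjusted p in limma 0.714. Without the epithelia of mouse 2, the epithelial mean was -0.010 and the difference -0.0074. Over probes well above background, the epithelial mean was 0.0012. On the slide that held mice 1 and 2 the difference was 0.072, and on the slide of mouse 3 it was -0.030.

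The proximal segment varied most between arrays. Its mean log2 ratio was 0.069, -0.18 and 0.038 in the epithelia, and 0.18, 0.053 and 0.031 in the stroma. All 3 stromal arrays were above 0, and the epithelia of mouse 2 were the lowest array. The epithelial mean was -0.023 ± 0.13 and the stromal mean 0.088 ± 0.080 (SD, n = 3 each), with limma adjusted p-values of 0.797 and 0.982. The stromal mean was 0.042 without mouse 1 and 0.054 with normexp. Epithelia minus stroma was -0.11, -0.23 and 0.0068 in the 3 mice, with a mean of -0.11 ± 0.12 (SD, n = 3; 95% interval -0.26 to 0.039). The limma adjusted p was 0.411 and the exact sign-flip permutation p 0.5. Without the epithelia of mouse 2, the epithelial mean was 0.054 and the difference -0.052. The difference was -0.17 on the slide of mice 1 and 2 and 0.0068 on that of mouse 3.

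The middle segment had the smallest spread. Its mean log2 ratio was -0.017, -0.032 and -0.014 in the epithelia and 0.015, -0.012 and 0.00032 in the stroma. All epithelial arrays were below all stromal arrays. The epithelial mean was -0.021 ± 0.0095 and the stromal mean 0.0010 ± 0.013 (SD, n = 3 each; limma adjusted p = 0.643 and 0.982). The difference of -0.022 ± 0.0093 (SD, n = 3) had an exact sign-flip permutation p of 0.25 and a limma adjusted p of 0.782, with a 95% interval from -0.13 to 0.083. Over probes well above background, with each array centered on them, the difference was -0.00086, so its size depended on the probes taken and the centering. The stromal value changed sign under 4 of the other processings and without mouse 1.

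The step from the proximal to the distal segment went in opposite directions on different arrays. Distal minus proximal was -0.080, 0.26 and -0.048 in the epithelia, and -0.21, -0.097 and -0.011 in the stroma. The epithelia of mouse 2 were the only array with a higher distal segment. The limma estimates were 0.044 in the epithelia, -0.10 in the stroma and 0.15 for the difference (adjusted p = 0.722, 0.830 and 0.690), and 0% of the 20 chromosomes were called in each. Without the epithelia of mouse 2, the epithelial step was -0.064 and the difference 0.044, and without mouse 3 the difference was 0.24. The stromal step was -0.054 without mouse 1.

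The levels of both dyes were compared by segment. In the distal segment, the median test signal relative to the array median was -0.12, -0.087 and -0.14 on the log2 scale in the epithelia and -0.17, -0.15 and -0.10 in the stroma. The reference signal was -0.14, -0.10 and -0.088 on the epithelial and -0.11, -0.094 and -0.11 on the stromal arrays. Both channels were thus dimmer than the array median on all 6 arrays, by like amounts. In the proximal segment, the reference signal was 0.25 to 0.28 above the median on the 6 arrays, whereas the test signal was 0.32, 0.11 and 0.30 above it in the epithelia and 0.43, 0.34 and 0.27 in the stroma. The lower proximal value of mouse 2 epithelia and the higher one of mouse 1 stroma were thus differences of the test channel.

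In bins of 5 Mb, 25 of which covered the chromosome, no bin passed the threshold. Over all chromosomes, 1.84% of 488 bins were called by limma in the epithelia, 0% in the stroma and 0% for the difference, against 0 of 25 on chromosome 9 in each. Before adjustment, 0, 1 and 2 of the 25 bins had a limma p under 0.05, against 79, 19 and 54 of the 488. The stromal bin lay from 25 to 30 Mb, with ratios of 0.24, 0.16 and 0.027 in mice 1, 2 and 3 (mean 0.14; limma adjusted p = 0.924). Both bins for the difference were in the proximal segment. From 15 to 20 Mb, the ratio was 0.15, -0.38 and 0.13 in the epithelia and 0.34, 0.16 and 0.19 in the stroma. From 35 to 40 Mb it was 0.14, -0.39 and 0.070 in the epithelia and 0.38, 0.11 and 0.095 in the stroma. In both bins every epithelial array was below the stromal array of its mouse, and the epithelia of mouse 2 were the only array below 0. The differences of -0.26 ± 0.25 and -0.26 ± 0.24 (SD, n = 3 each) had a limma adjusted p of 0.432 each, and they were the lowest of the 25 bins. Without mouse 2 they were -0.12 and -0.13, and the epithelial means of these bins, -0.032 and -0.059 over 3 mice, were 0.14 and 0.10. The bin from 15 to 20 Mb was also the highest in the stroma, at 0.23 ± 0.095 (SD, n = 3). When the stroma was fitted alone, it was called at 0.23 (limma adjusted p = 0.00334), as was the bin from 35 to 40 Mb at 0.20 (adjusted p = 0.0164), against 7.58% of all bins. The value from 35 to 40 Mb came mostly from mouse 1, at 0.38 against 0.11 and 0.095 in mice 2 and 3. With the stroma fitted alone, 71 probes of chromosome 9 were called, 28 higher and 43 lower (3.24% of all probes).

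The last bins, towards the end of the chromosome where Tgfbr2 and Ctnnb1 lie by gene order, were near 0 in the stroma. Each was a mean over many probes, which cannot show a deletion within 1 gene in part of the cells. From 110 to 115 Mb, the ratio was -0.021, 0.18 and 0.012 in the epithelia and -0.12, -0.041 and 0.059 in the stroma. From 115 to 120 Mb, it was -0.049, 0.40 and -0.039 in the epithelia and 0.023, -0.044 and 0.031 in the stroma. From 120 Mb to the last probe, it was 0.030, 0.096 and 0.0037 in the epithelia and 0.033, 0.023 and 0.012 in the stroma. In each of these bins the epithelia of mouse 2 were the highest array, and the other 5 arrays lay between -0.12 and 0.059. The epithelial mean from 115 to 120 Mb, 0.10 ± 0.26 (SD, n = 3), was the highest of the 25 bins, with a limma adjusted p of 0.551. It was -0.044 without the epithelia of mouse 2, so this rank rested on 1 array. The mean from 110 to 115 Mb went likewise from 0.057 to -0.0047. Epithelia minus stroma without mouse 2 went from 0.10 to -0.071 from 115 to 120 Mb, and from 0.020 to -0.0055 in the last bin. The stromal means were -0.035 ± 0.091, 0.0032 ± 0.041 and 0.023 ± 0.010 (SD, n = 3 each). Their 95% intervals ran from -0.17 to 0.11, from -0.20 to 0.21 and from -0.083 to 0.13. The epithelial spread entered these intervals, with an SD of 0.26 from 115 to 120 Mb. The lowest bins were from 5 to 10 Mb in the epithelia (-0.087 ± 0.31, SD, n = 3, and 0.080 without mouse 2) and from 20 to 25 Mb in the stroma (-0.066 ± 0.10, SD, n = 3). In that stromal bin the arrays were at -0.0087, -0.18 and -0.0047, so its rank rested on the stroma of mouse 2. The highest difference, 0.10 ± 0.24 (SD, n = 3), was from 105 to 110 Mb, where the epithelia of mouse 2 were at 0.26. Without that mouse it was -0.036.

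The relation of bin levels to the number of probes in a bin differed between arrays in sign and in size. Across the 25 bins of chromosome 9, which share the array and its hybridization, Pearson's r between bin mean and number of probes was -0.47, 0.38 and -0.16 in the epithelia, and -0.17, -0.26 and 0.15 in the stroma. Across the 463 bins of the other chromosomes it was -0.29, 0.52 and -0.011 in the epithelia and -0.40, -0.46 and 0.31 in the stroma. The epithelia of mouse 2 had the highest positive value in both sets. In the 12 bins of chromosome 9 with fewer than 98 probes, the median number, the mean level was 0.089, -0.15 and 0.019 in the epithelia and 0.12, 0.040 and 0.0081 in the stroma. In the other 13 bins it was -0.018, -0.0054 and -0.0052, and 0.0032, -0.022 and 0.015. The part of probe density in the levels of the segments was not tested. The standard deviation of the bin means was 0.11, 0.23 and 0.053 in the epithelia, against 0.16, 0.27 and 0.14 on the other chromosomes, and 0.14, 0.095 and 0.066 in the stroma, against 0.14, 0.087 and 0.087.

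Single probes stood out where broad levels did not. In the epithelia, 3 of the 2455 probes passed the threshold in limma, all lower than the reference, against 0.0236% of all 42404 probes in either direction and 0.0212% lower. In the stroma 0 did (0.00472% of all probes, 0.00236% lower), and for epithelia minus stroma 2 did, both lower in epithelia (0.0189%). All 3 lay between 40496974 and 54703746, a span of 14.2 Mb with 340 probes. Before adjustment, 236 probes of chromosome 9 (9.61%) had a limma p under 0.05 in the epithelia, 104 lower and 132 higher, against 4.25% and 6.42% of all probes. In the stroma 286 did (11.6%), 158 lower and 128 higher (6.06% and 5.45% of all probes). For epithelia minus stroma 197 did (8.02%), 92 lower and 105 higher (2.66% and 4.64% of all probes). The median estimate over the chromosome 9 probes was -0.027, 0.026 and -0.038, against -0.0050, 0.010 and -0.017 over all probes. Of the 2446 probes of chromosome 9 with values on all 6 arrays, all epithelia were below all stroma at 168 (6.87%, against 5.54% of all probes) and above it at 180 (7.36%, against 7.73%).

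The deepest probe lay in the middle segment, from 54703687 to 54703746. Its log2 ratio was -4.32, -2.45 and -3.67 in the epithelia, and 0.88, 0.92 and 0.70 in the stroma. All epithelia were far below and all stroma above the reference. Among the epithelial arrays, it was the lowest probe of the chromosome in mice 1 and 3 and the 17th lowest in mouse 2. The epithelial mean was -3.48 ± 0.95 (SD, n = 3; limma adjusted p = 0.00215), the stromal mean 0.83 ± 0.12 (SD, n = 3; adjusted p = 0.385 in limma), and the difference -4.32 ± 0.92 (SD, n = 3; adjusted p = 0.00532 in limma). The wider epithelial spread entered the stromal p-value, and with the stroma fitted alone the adjusted p was 0.0409 in limma. The test intensity was 115, 336 and 145 in the epithelia, against 4377, 4776 and 2817 in the stroma, while the reference intensity was 1744 to 2496 on all 6 arrays. The test channel was well above background on 2 of the 3 epithelial arrays and on all stromal arrays, which limits the precision of so low a ratio. The neighbor 31917 bp before it had ratios of 0.76, -0.83 and 0.37 in the epithelia and of 0.24, 0.70 and 0.73 in the stroma. The neighbor 15180 bp after it was at -0.38, -1.59 and -0.58 in the epithelia and at -0.12, -0.55 and -0.89 in the stroma. The lowest epithelial run of 5 probes in this segment, from 54703687 to 54747987, began with this probe and had epithelial means of -1.02, -1.14 and -1.02, against -0.045, 0.014 and -0.38 in the stroma. Its other 4 probes averaged -0.20, -0.81 and -0.35 in the epithelia and -0.28, -0.21 and -0.65 in the stroma. The deep value was thus that of a single probe in a run that was otherwise below 0 in both tissues.

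Another deep probe lay in the proximal segment, from 40496974 to 40497033, with -2.54, -2.09 and -2.09 in the epithelia and -0.40, -0.34 and -0.30 in the stroma. Both tissues were below 0 on every array, the epithelia much further, and they did not overlap. The epithelial mean was -2.24 ± 0.26 (SD, n = 3; limma adjusted p = 0.00426), whereas the difference of -1.89 ± 0.21 (SD, n = 3) was not past the threshold (adjusted p = 0.507 in limma). Its test intensity was 186, 292 and 337 in the epithelia and 1008, 835 and 1179.8 in the stroma, well above background on all arrays. The neighbor 25121 bp before it was at -0.34, -1.17 and -0.23 in the epithelia and at -0.51, -0.027 and 0.32 in the stroma, with the epithelia lower in mice 2 and 3. The neighbor 38948 bp after it was at 0.50, -0.97 and -0.51 in the epithelia and at -0.93, -0.80 and -1.21 in the stroma, with the stroma lower in mice 1 and 3. These were the 2 probes below -2 on all 3 epithelial arrays, against 0.0261% of all 42187 probes with complete values. In the stroma 0 were (0.00474%).

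The probe just outside this limit was also called. It ran from 44969890 to 44969949 in the middle segment. Its ratio was -2.17, -1.78 and -2.28 in the epithelia and 0.59, 0.85 and 1.24 in the stroma. Every epithelial array was below and every stromal array above 0. The epithelial mean was -2.08 ± 0.26 (SD, n = 3; limma adjusted p = 0.0127), the stromal mean 0.89 ± 0.33 (SD, n = 3; adjusted p = 0.333 in limma) and the difference -2.97 ± 0.48 (SD, n = 3; adjusted p = 0.0216 in limma). It was a bright probe, with both dyes well above background on every array and a test intensity of 902, 1133 and 623 in the epithelia and 5745, 6341 and 6046 in the stroma. The neighbor 16887 bp before it had ratios of -0.44, 0.27 and -0.19 in the epithelia but 0.93, 0.88 and 1.16 in the stroma. The neighbor 34865 bp after it lay between -0.44 and 0.66 on all 6 arrays.

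Some calls of these 3 probes changed with the mice and the spread used, while their values stayed low. Without mouse 1 and without mouse 3, 0 probes of chromosome 9 were called in the epithelia, and without mouse 2 there were 3. The epithelial values at 40496974, 44969890 and 54703687 were -2.09, -2.03 and -3.06 without mouse 1, and -2.32, -1.98 and -3.39 without mouse 3. The difference at 54703687 was called in limma without any 1 of the mice, at -3.87, -4.79 and -4.29 without mice 1, 2 and 3. That at 44969890 was called without mouse 1 (-3.08) and without mouse 2 (-3.14), but not without mouse 3 (-2.69; limma adjusted p = 0.292). With the slide as a block, 2 were called in the epithelia, whereas the difference, with the slide in place of the mouse, kept 0. When the stroma was fitted alone, its higher values at 54703687 and 44969890 were called (limma adjusted p = 0.0409 and 0.0426). With the epithelia fitted alone, 1 probe was called, and an ordinary test without the pooled spread called 0 in the epithelia and by the difference. With normexp background correction of the median signals all 3 were called in limma, at the smaller values of -2.27 at 54703687, -1.79 at 44969890 and -1.49 at 40496974. The difference at 54703687 was then -2.97, and 0 probes were below -2 on all 3 epithelial arrays. This number was also 0 when each array was limited to, and centered on, probes well above background. The depth and the calls of these probes thus varied with the processing. They were chosen for low epithelial values on these same arrays, so their unchanged direction was given by that choice. On the slide of mice 1 and 2 and on that of mouse 3, the differences were -4.29 and -4.37 at 54703687, -1.95 and -1.79 at 40496974, and -2.69 and -3.52 at 44969890. Without these 3 probes, the mean over the span that holds them was -0.078, -0.050 and -0.035 in the epithelia and -0.031, 0.014 and 0.0021 in the stroma.

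A less strict limit of -1 on all 3 arrays of a tissue was met by 4 probes in the epithelia (0.0545% of all probes) and by 2 in the stroma (0.0972%). The additional epithelial probe, at 48655531, had ratios of -1.99, -2.38 and -1.29 in the epithelia and 0.50, -0.18 and 0.73 in the stroma (limma adjusted p = 0.104 in the epithelia and 0.165 for the difference). It was dim, with a test signal well above background on 1 of the 3 epithelial arrays. Of the stromal probes, that at 54796250, not 100 kb from the deepest epithelial probe, was at -1.12, -2.15 and -1.07 in the stroma and at 0.063, 0.47 and 0.14 in the epithelia. It was low in the tissue in which the deepest probe was not. The other stromal probe, at 9204020, was at -1.35, -1.23 and -1.03 in the stroma and at 0.52, -2.92 and -0.71 in the epithelia. None of these 6 probes lay in the distal segment.

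In the distal segment, 0 of 816 probes were called in any comparison when both tissues shared 1 spread. The smallest limma adjusted p was 0.175 in the epithelia, 0.333 in the stroma and 0.679 for the difference. Before adjustment, 79, 94 and 60 probes of this segment passed 0.05 (9.68%, 11.5% and 7.35%), against 4525, 4881 and 3093 of all 42404. With the stroma fitted alone, 22 were called in limma, 15 lower and 7 higher, or 2.70% against 3.24% of all probes. Probes below -2 numbered 2, 8 and 0 in the epithelia, and 0 on each stromal array. No probe was among them on more than 1 array. Of the pair in mouse 1, that at 98106314 had -2.34, 0.58 and -0.51 in the epithelia and -0.87, -1.14 and 0.024 in the stroma. That at 108836504 had -2.98, 0.56 and -0.58 in the epithelia and 0.020, -1.52 and -0.28 in the stroma. At both, the epithelia of mouse 2 were above 0. The lowest run of 5 consecutive probes in the stroma of this segment, chosen after its values were seen, lay from 91158515 to 91236020, with means of -0.66, -0.70 and -0.28. The epithelia were at 0.31, 0.31 and -0.32 over this run, and its probes at 91166912 and 91178002 were among those called in the stroma alone. In the epithelia the lowest run, from 108285773 to 108316775, had means of -0.34, -0.86 and -0.37, and the stroma was at -0.25, -0.29 and -0.40. Over the same segment, the lowest probe in the epithelia among those well above background on all arrays, at 95947150, had -1.26, -0.83 and -0.82 in the epithelia and -0.18, -0.090 and -0.17 in the stroma.

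The only probe of the chromosome above 1 on all 6 arrays lay in the distal segment, from 107540384 to 107540443. Its ratio was 2.21, 1.72 and 1.11 in the epithelia and 1.81, 1.19 and 1.09 in the stroma, so that the tissues overlapped. Its mean was 1.68 ± 0.55 in epithelia and the stromal one 1.36 ± 0.39 (SD, n = 3 each), with limma adjusted p-values of 0.175 and 0.333 (0.0321 for the stroma alone) and a difference of 0.32 ± 0.27 (SD, n = 3; adjusted p = 0.829 in limma). Its reference channel was well above background on 2 of 3 arrays in each tissue. It was 1 of 2 probes above 1 on all 3 epithelial arrays (0.0616% of all probes) and the only such probe in the stroma (0.0569%). The other epithelial one, at 32540264 in the proximal segment, was at 1.44, 1.42 and 1.24 in the epithelia and at -0.62, -0.76 and 0.19 in the stroma. There the tissues did not overlap, but the difference of 1.76 ± 0.62 (SD, n = 3) had an adjusted p of 0.679 in limma.

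Among the 1792 probes of chromosome 9 with both dyes well above background on every array, the 3 highest and 3 lowest in each tissue and by the difference were listed as a description. The lowest in the epithelia, besides those at 40496974 and 44969890, was at 40664428, with -1.96, -1.65 and -0.69 in the epithelia and -0.82, 0.64 and -0.30 in the stroma. Its distance of under 0.2 Mb from the deep proximal probe placed both in the lowest run of 5 probes of that segment, whose epithelial means were -0.87, -0.63 and -0.58 and whose stromal means were -0.58, -0.22 and -0.43. Without the deep probe, the other 4 averaged -0.45, -0.26 and -0.21 in the epithelia and -0.62, -0.19 and -0.46 in the stroma, which was then the lower tissue in mice 1 and 3. The highest in the epithelia were at 76344762 (0.77, 2.86 and 1.04), at 61711716 (0.77, 2.12 and 1.31) and at 32540264. At each of the first 2, the epithelia of mouse 2 were the highest array, and the stroma lay between -0.29 and 0.26. In the stroma, the highest were at 38566254 (2.02, 1.36 and 0.98), at 55777534 (1.78, 1.25 and 0.58) and at 44756969 (1.05, 1.47 and 0.99). The stroma of mouse 3 had the lowest of the 3 values at each. The lowest in the stroma, besides those at 54796250 and 9204020, was at 86815649 in the distal segment (-1.29, -1.03 and -0.66), where the epithelia were at -0.62, 0.18 and -0.51. It was called with the stroma alone (limma adjusted p = 0.0348). By the difference, the lowest were at 44969890, 40496974 and 44756969, the last with a difference of -1.56 ± 0.70 (SD, n = 3). The highest by the difference was at 57986907, at 1.95 ± 0.95 (SD, n = 3; limma adjusted p = 0.679), with 1.18, 1.58 and 0.22 in the epithelia and -1.06, -1.13 and -0.67 in the stroma.

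Values far from 0 were mostly those of 1 array. Below -2 lay 5, 41 and 3 probes of chromosome 9 in the epithelia, and 0, 1 and 0 in the stroma (0%, 0.0407% and 0%, against 0.0307%, 0.0401% and 0.0118% of all probes). Those in the epithelia were 0.204%, 1.67% and 0.122% of the probes, against 0.0849%, 1.23% and 0.0330% of all probes. Above 2 lay 3, 47 and 0 in the epithelia (0.122%, 1.91% and 0%, against 0.0990%, 2.18% and 0.00707% of all probes) and 7, 3 and 0 in the stroma (0.285%, 0.122% and 0%, against 0.208%, 0.144% and 0.0330%). The epithelia of mouse 2 thus held most of both. Below -1 lay 67, 338 and 25 in the epithelia (2.73%, 13.8% and 1.02%, against 2.80%, 13.0% and 1.101% of all probes) and 54, 57 and 28 in the stroma (2.20%, 2.32% and 1.14%, against 2.39%, 2.16% and 1.41%). Above 1 lay 80, 312 and 39 in the epithelia (3.26%, 12.7% and 1.59%, against 3.51%, 14.8% and 1.49%) and 117, 40 and 48 in the stroma (4.77%, 1.63% and 1.96%, against 5.37%, 1.59% and 1.84%). The shares at these wider limits were near those of all probes on each array.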

How the data were processed

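Array-CGH of 6 samples was analysed. Array signals were extracted by the authors with Feature Extraction 10.7.1.1, and the files give positions on mm8. The deposited intensity values are spot and local background medians, and processed signals, from which background and spatial trends were removed and which were scaled linearly per dye. The deposited log10 values, in the files and in the series table, are log10 ratios of reference over test, equal to each other (largest difference 0) and uncentered. The median of the 6 columns was between -0.0049 and 0.0025. Here the sign was turned, from the dyes in the labels. Arrays correlated over all probes between -0.095 and 0.59. Over chromosome 9 probes, epithelial arrays correlated at -0.052, 0.027 and 0.21 (mice 1 and 2, 1 and 3, 2 and 3). Stromal arrays correlated at 0.43, 0.43 and 0.34 for the same pairs of mice. Over single probes the epithelial arrays were thus little alike, those of mice 1 and 3 included.

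Outlier spots (2 to 8 on chromosome 9 per array) were left out, spots of a probe averaged, and each array centered on its median. Each tissue mean was tested against 0 with limma 3.58.1 (R 4.3.3), with 1 spread over 6 arrays. Epithelia minus stroma had the mouse as a block, since the labels give both tissues of each animal. The correlation of their deviations across probes was 0.078, -0.023 and 0.10. P-values were adjusted by Benjamini-Hochberg over 42404 probes, 488 bins with at least 20 probes, 60 segments or 20 chromosomes, with a threshold of 0.05. The fits were run on simulated arrays with independent noise, which checks the code and not the calls made here. Descriptions were computed in Python 3.11.15 with numpy 2.4.6 and pandas 2.3.3.

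Probes named were those past the threshold, those below -2 on all 3 arrays of a tissue, the one just outside, and the 3 highest and 3 lowest among probes well above background. Bins named were the highest and lowest, the last 3 and those past the threshold. The probes beyond 1 either way, other bins, the runs of 5 and the other probes of the distal segment were named after their values were seen. The members and lists were chosen with earlier results of these data known. Alternatives were normexp (offset 50), loess, probes well above background, outlier spots kept, other centering, the series table, medians, segments of equal probe number, bins of other sizes, other limits, no mouse block, each tissue alone, the slide as a block, an ordinary test and leaving out mice. The labels and the study's methods give different array formats, and the files hold 45220 spots per array. The number of arrays limits the precision.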

Additional observations from a re-analysis of the deposited data

Results flagged for a closer look

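At 2 probes of chromosome 9 the tissues differed by the test of the difference itself, with all epithelia below and all stroma above the reference. The difference was -4.32 at 54703687 (limma adjusted p = 0.00532) and -2.97 at 44969890 (limma adjusted p = 0.0216), both in the middle segment. Each was lower in the epithelia of 3 of 3 mice. At 54703687 the test signal was well above background on 2 of the 3 epithelial arrays, and with normexp background correction its difference was -2.97. With the slide as a block in place of the mouse, neither was past the threshold (limma adjusted p = 0.101 and 0.120). Both tissues of a mouse lay on the same slide, so the mouse block of the main fit also takes up the slide. No segment and no bin of 5 Mb had all epithelia on one side of 0 and all stroma on the other.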

How the results depend on the processing

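No mean of the chromosome or of its segments was past the threshold under any alternative, and the bins were called only in the stroma fitted alone (2). In the stroma alone 71 probes were called (2.89%, against 3.24% of all probes), 28 higher and 43 lower, and in the epithelia alone 1. The cause of these changes was not tested. With no replicate block (mouse), the difference was -0.028 for the chromosome and 0.038 for the distal segment, and the number of probes called was 2, as with the block. The stromal mean of the middle segment turned to -0.0080 with normexp, -0.011 with probes well above background, -0.0045 with medians and -0.0038 with segments of equal probe number.

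Leaving out 1 mouse at a time, that mean ranged from -0.0058 to 0.0075. The epithelial mean of the chromosome ranged from -0.016 to 0.0064, of the distal segment from -0.010 to 0.037, of the proximal segment from -0.069 to 0.054 and of distal minus proximal from -0.064 to 0.11. The difference ranged from -0.0074 to 0.072 in the distal segment, from -0.17 to -0.052 in the proximal one and from 0.044 to 0.24 for distal minus proximal. The stromal mean ranged from 0.0061 to 0.033 for the chromosome, from 0.042 to 0.12 in the proximal and from -0.035 to -0.0030 in the distal segment, and from -0.15 to -0.054 for distal minus proximal. Probes called ranged from 0 to 3 in the epithelia and from 1 to 3 for the difference. Without the epithelia of mouse 2 alone, chosen after seeing the data (for the bins too), the chromosome mean was 0.0064, the distal segment -0.010, its difference -0.0074, the proximal segment 0.054 and distal minus proximal -0.064.

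With probes well above background, the chromosome mean was 0.0079 in the stroma and its difference -0.015, and the difference was -0.00086 in the middle segment. In the epithelia the means were -0.0090, -0.012 and 0.0012 in the proximal, middle and distal segments, distal minus proximal 0.010, and the distal stromal mean -0.048. With normexp, the chromosome mean was -0.016 in the epithelia and 0.0069 in the stroma, and the distal epithelial mean 0.012.

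For the difference, 1 probe was called with probes well above background, where the probe at 54703687 was not tested. With the slide as a block in place of the mouse, 0 were called. The ordinary test called 0 epithelial probes and 0 by the difference. Deep epithelial probes numbered 0 with normexp, 0 with probes well above background and 4 below -1, where the stroma had 2. In the other comparisons, 370 results were taken as the same. The values among them kept direction and side of the threshold, but some of the counts among them changed. Epithelial probes called went from 3 to 2 with the slide as a block and with probes well above background. Probes called for the difference went from 2 to 3 without mouse 2, and deep epithelial probes from 2 to 3 below -1.5. Signal over background limits dim probes: 1792 of 2455 were well above it in both channels on all arrays.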
